A study of Homo sapiens with 6 samples.

Results

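The name IMP1 target mRNAs stands here for a list of 10 genes: ACTB, MYC, CD44, BTRC, PPP1R9B, ABCB1, MAPT, MKI67, CTNNB1 and TCF4. Whether the RNA-binding protein IMP1 binds each of their mRNAs was not measured in these data. Every probe set whose platform annotation names 1 of these genes was taken, which gave 50 of the 54675 probe sets on the array and 10 of 19775 annotated gene symbols. A probe set is a group of short probes that together read 1 stretch of a transcript, so a gene with several probe sets is measured several times on the same RNA. Of the 50, 30 were bright enough to be tested, 17 were too dim and 3 were ACTB control probe sets that the test leaves out. The dim ones were 12 of the 13 for CD44, 2 for BTRC, 2 for MAPT and 1 for PPP1R9B. A further 10 probe sets name a member together with a second gene and are described only where they bear on it.

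RNA came from a human kidney cell line that the labels do not name. Cells received an empty vector (mock), hIMP1 wt or hIMP1 Dmut, as the labels call the constructs, and no label explains the name Dmut. Each group has 2 arrays, which carry a replicate number, 1 or 2, in their titles. No label tells whether both arrays of a group came from separate cultures, so each p-value reflects just the variation among 6 arrays, part or all of which may be technical. The small number of arrays limits how precise any value can be.

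IMP1, encoded by IGF2BP1, is a member of a small family of RNA-binding proteins that is abundant in embryonic tissue and in many tumours. It binds chosen mRNAs through its KH domains, packs them into cytoplasmic granules, and governs where they are translated and how fast they decay. It was first described as the protein that binds the zipcode of beta-actin mRNA and, independently, as the protein that binds the coding region determinant of MYC mRNA and shields it from decay. Its other clients include CD44 and BTRC, and MAPT in neurons. An array reads the amount of an mRNA and not where it lies or whether it is translated.

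The deposited intensities are on a linear scale, and the mean of each array without its outermost 2% at either end was 150.02, so the arrays had been brought to a common level, while their medians ranged from 26.7 to 33.7. The transfected gene did not separate the groups at the probe set 227377_at, where IGF2BP1 read 231 and 307 in mock cells, 226 and 326 with hIMP1 wt, and 266 and 288 with hIMP1 Dmut. At 223689_at IGF2BP1 read 188 and 93.2, 253 and 137, and 248 and 150.5 in the same order, a change of 0.46 ± 0.39 (SE, log2) for hIMP1 wt and 0.51 ± 0.39 for hIMP1 Dmut. All 3 IGF2BP1 probe sets had an adjusted p of 1 in both comparisons with mock (limma). Where on the mRNA each of them lies is not given in the sources used here, so they do not check the transfection. Of 10 measured kidney epithelial markers, 5 lay above the array median on every array (PAX8, EPCAM, KRT8, KRT18 and EYA1) and 2, CDH16 and CDH6, lay below it on every array. Of 5 measured neuronal markers, NEFL, SYT1 and SNAP25 were above the median on every array, NEFM was above it on 3, and RBFOX3 was below it on every array. Of 7 blood markers, CD79A and HBB were above the median on every array, CD3E was above it on 3, and PTPRC, CD14, CD3D and LYZ were below it on every array. Of 4 endothelial markers, PECAM1 was above it on 5 arrays and CDH5, VWF and KDR on none. Of 6 fibroblast markers, COL1A1 was above it on every array and LUM and PDGFRA on none.

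The comparisons with mock ask whether the amount of these mRNAs differs when cells receive either construct. No probe set of the 10 genes passed the test. With hIMP1 wt, 0 of 30 probe sets passed at an adjusted p under 0.05 (limma with Benjamini-Hochberg adjustment), against 0.00732% of all 27307 tested, and 0 of 30 had an unadjusted p under 0.05, against 1.03% of all. With hIMP1 Dmut the counts were again 0 and 0 of 30, against 0.00732% and 1.42% of all. Between the constructs they were 0 and 0 of 30, against 0% and 1.23% of all. In total RNA of a culture, fewer cells with a transcript and less of it per cell cannot be told apart.

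The changes themselves were small and centred on 0, as they were for the array as a whole. All changes are differences of mean log2 values of the intensity plus an offset of 9.04, with standard errors (SE) from the limma fit. The median change of the 30 probe sets was -0.01 with hIMP1 wt (13 higher, 17 lower) and 0.05 with hIMP1 Dmut (19 higher, 11 lower). For all probe sets it was -0.01 (47.6% higher) and 0.01 (51.8% higher). Between the constructs the median of the 30 was 0.004, with 15 probe sets higher and 15 lower, beside 0.02 for all (54.1% higher). The split moved with the scaling of the arrays. Scaling to equal medians gave 18 higher with hIMP1 wt, 13 with hIMP1 Dmut and 7 between the constructs, and it shifted the median of all probe sets by 0.06, -0.07 and -0.12 against the values as deposited (and by 0.10 between replicate numbers).

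The intervals show what size of change the data still allow. With hIMP1 wt, 27 of the 30 had a 95% interval that lay wholly within 1 log2 unit of 0, which is less than a doubling or halving of the intensity plus offset. The numbers were 24 of 30 with hIMP1 Dmut and 27 of 30 between the constructs. In 26, 27 and 26 of the 30 the change was smaller than its own standard error. The most negative change with hIMP1 wt was at a MAPT probe set (-0.75) and the most positive at a TCF4 probe set (0.77), while with hIMP1 Dmut they were at MKI67 (-0.33) and TCF4 (0.54).

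**Figure D1:**
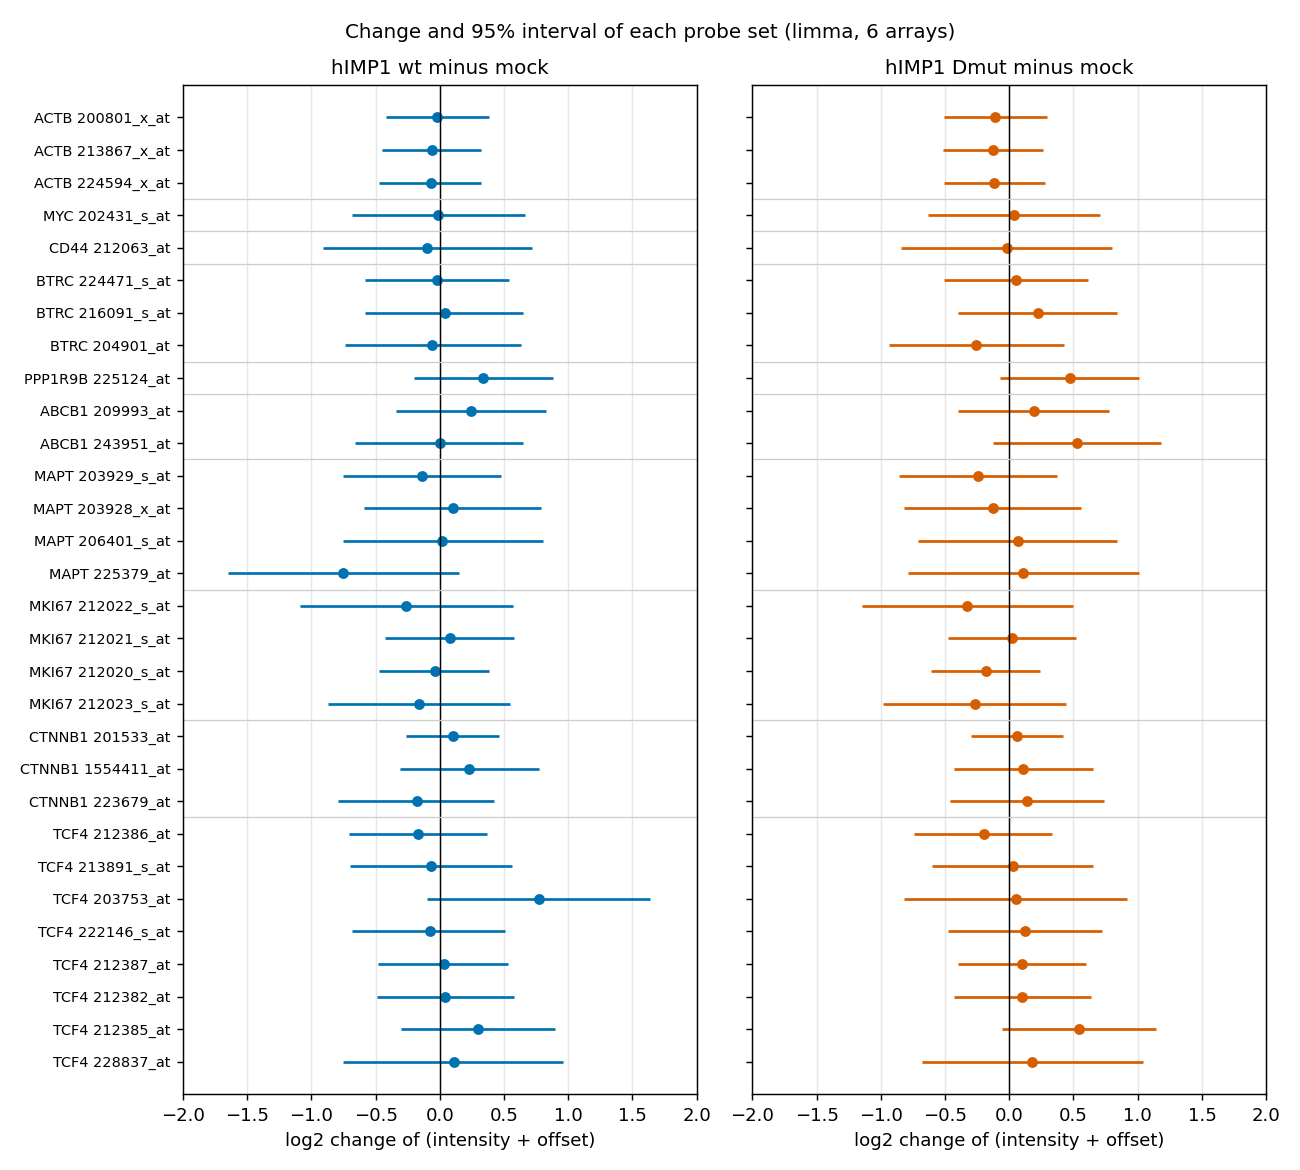
Log2 change against mock of the 30 tested probe sets of the IMP1 target mRNAs, with hIMP1 wt on the left and hIMP1 Dmut on the right; points are the fitted change of log2(intensity + offset) and bars its 95% interval (limma, 6 arrays). Every interval crosses 0, and the widest excursions are MAPT 225379_at (-0.75) and TCF4 203753_at (0.77) with hIMP1 wt.

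Some probe sets had both arrays of a group on the same side of both arrays of the other. With hIMP1 wt this held upwards for 4 of 30 probe sets (13.3%, against 9.72% of all) and downwards for 2 (6.67%, against 11.6%). With hIMP1 Dmut it held upwards for 5 (16.7%, against 12.6%) and downwards for 2 (6.67%, against 11%). Between the constructs it held upwards for 4 (13.3%, against 13.1%) and downwards for 1 (3.33%, against 8.89%). With 30 probe sets, 1 more or 1 fewer moves a share by 3.33 percentage points. In the descriptions of each gene, such groups are said not to overlap.

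ACTB encodes beta-actin, the cytoskeletal actin of motile cells. It is read by 3 tested probe sets, each with the suffix _x_at, which the maker gives to probe sets with probes that can also bind other sequences. At 200801_x_at the intensity was 12062 and 14318 with mock, 12103 and 13796 with hIMP1 wt, and 13338 and 11145 with hIMP1 Dmut. The groups overlapped, and the change was -0.02 ± 0.18 (SE) with hIMP1 wt and -0.11 ± 0.18 with hIMP1 Dmut. Likewise 213867_x_at and 224594_x_at gave -0.06 and -0.07 with hIMP1 wt and -0.13 and -0.12 with hIMP1 Dmut. Median scaling turned the hIMP1 wt value of 200801_x_at to 0.03.

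The 3 ACTB probe sets moved together from array to array, with correlations of 0.97 to 0.99 over the 6 arrays. With hIMP1 Dmut they were higher than mock among arrays numbered 1 (0.10 to 0.14) and lower among arrays numbered 2 (-0.36 to -0.37). The ACTB control probe sets read the 3′ end, the middle and the 5′ end of the mRNA. The ratio of the 3′ to the 5′ control was 1.52 and 1.57 with mock, 1.44 and 1.67 with hIMP1 wt, and 1.51 and 1.58 with hIMP1 Dmut. The groups thus overlapped in this measure of RNA integrity, while the replicate numbers did not. In the ACTB 3′ to middle ratio and in the 3′ to 5′ ratio of the GAPDH controls the replicate numbers did overlap. The 9 probe sets that name ACTB together with ACTG1, the gene of gamma-actin, lay between 8244 and 13392 on every array.

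PPP1R9B encodes spinophilin, a scaffold that binds actin filaments and protein phosphatase 1. At 225124_at it read 105 and 109 with mock, 123 and 154 with hIMP1 wt, and 152 and 151 with hIMP1 Dmut. Both arrays of either construct lay above both mock arrays, which held for 1 of the 30 tested probe sets (3.33%, against 3.9% of all). The change was 0.34 ± 0.24 with hIMP1 wt (95% interval -0.20 to 0.88) and 0.47 ± 0.24 with hIMP1 Dmut (-0.07 to 1.01), with unadjusted p of 0.189 and 0.0797 and an adjusted p of 1 in both (limma). Groups that do not overlap must give a positive value within each replicate number too. These values were 0.21 and 0.47 with hIMP1 wt and 0.50 and 0.44 with hIMP1 Dmut. The 2 comparisons share their mock arrays. A second PPP1R9B probe set, 230455_at, read under 7 on every array and was too dim to be tested.

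CD44 encodes the receptor for hyaluronan, which links cells to the matrix around them. It has 13 probe sets on the array, the most of any of the 10 genes, and only 212063_at passed the filter. This probe set read 49.2 and 33.4 with mock, 45.4 and 30.7 with hIMP1 wt, and 44.1 and 36.1 with hIMP1 Dmut. It lay just above the middle of each array, between the 51.5th and the 58.7th percentile. The change was -0.10 ± 0.37 with hIMP1 wt and -0.02 ± 0.37 with hIMP1 Dmut, and the 95% interval of the first runs from 0.531 to 1.65 times the mock level (intensity plus offset).

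The 12 other CD44 probe sets lay mostly below the middle of the array, and 7 of them were below the array median on all 6 arrays. Single arrays stood far from the rest. The probe set 229221_at read 3.33 and 0.880 with mock, 39.0 and 1.94 with hIMP1 wt, and 36.7 and 4.83 with hIMP1 Dmut, so the arrays numbered 1 of both constructs stood far above the other 4. Without the filter, its arrays numbered 2 differed from those numbered 1 by -1.39 ± 0.42 (unadjusted p = 0.00757, adjusted p = 0.164, limma). The highest array exceeded the lowest by 2.30-fold to 44.3-fold over the 12. No change of theirs passed an unadjusted p of 0.05 in either comparison with mock when the filter was dropped (limma), and the smallest was 0.0717, at 216056_at with hIMP1 wt.

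**Figure D2:**
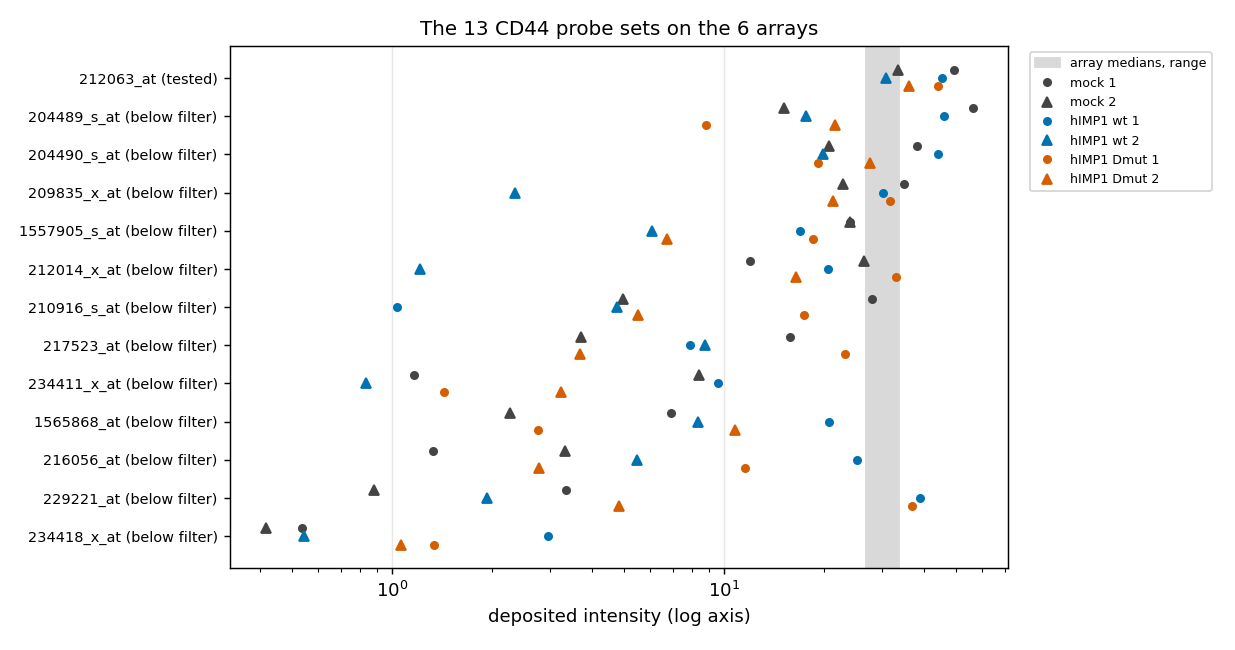
Deposited intensity of the 13 CD44 probe sets on each of the 6 arrays (log axis), with colour for the group, circles for arrays numbered 1 and triangles for arrays numbered 2; the grey band spans the array medians, 26.7 to 33.7. Only 212063_at stays at or above its array's median on every array, and the dim probe sets scatter over wide ranges between arrays of 1 group.

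MYC encodes the transcription factor that drives growth and ribosome production, and its short-lived mRNA is the classic client that IMP1 stabilises. Its single probe set, 202431_s_at, lay between the 96.6th and the 98.2th percentile of the arrays. It read 1413 and 2646 with mock, 1652 and 2242 with hIMP1 wt, and 1636 and 2429 with hIMP1 Dmut. The change was -0.01 ± 0.30 with hIMP1 wt (95% interval -0.68 to 0.66) and 0.04 ± 0.30 with hIMP1 Dmut (-0.63 to 0.71). Within arrays numbered 1 both constructs read above mock (0.22 and 0.21), and within arrays numbered 2 both read below it (-0.24 and -0.12). In every group the array numbered 2 was the higher, and all 3 of those lay above all 3 numbered 1.

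MKI67 encodes Ki-67, the nuclear protein of cycling cells. Of its 4 probe sets, 212022_s_at read 717 and 1156 with mock, 524 and 1097 with hIMP1 wt, and 547 and 959 with hIMP1 Dmut. Its change was -0.26 ± 0.37 with hIMP1 wt and -0.33 ± 0.37 with hIMP1 Dmut, and it was negative within both numbers for each construct. The other probe sets ranged from -0.16 to 0.08 with hIMP1 wt and from -0.27 to 0.02 with hIMP1 Dmut.

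For MKI67 the groups did not overlap at 212023_s_at with hIMP1 wt and at 212020_s_at with hIMP1 Dmut, and both were lower than mock. At 212020_s_at the intensity was 344 and 380 with mock, 343 and 358 with hIMP1 wt, and 313 and 322 with hIMP1 Dmut, a change of -0.18 ± 0.19 (95% interval -0.61 to 0.24). At 212023_s_at it was 278 and 288 with mock, 259 and 246 with hIMP1 wt, and 156 and 347 with hIMP1 Dmut, so the lowest and the highest array of the 6 were those of hIMP1 Dmut. The hIMP1 wt change there was -0.16 ± 0.32. None of the MKI67 changes passed the test.

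CTNNB1 encodes beta-catenin, the coactivator through which Wnt signals reach target genes. Its probe set 201533_at was the steadiest of all 30, with the highest array only 1.13 times the lowest. It read 1827 and 1916 with mock, 1990 and 2020 with hIMP1 wt, and 2060 and 1843 with hIMP1 Dmut. Both hIMP1 wt arrays were above both mock arrays, by a change of 0.10 ± 0.16 (95% interval -0.26 to 0.46), and with hIMP1 Dmut the groups overlapped at 0.06 ± 0.16.

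The 2 further CTNNB1 probe sets did not move alike. At 1554411_at the intensity was 144 and 150 with mock, 178 and 170 with hIMP1 wt, and 188 and 135 with hIMP1 Dmut, a change of 0.23 ± 0.24 and 0.11 ± 0.24. At 223679_at it was 131 and 104, 86.8 and 118, and 119 and 141 in the same order, a change of -0.18 ± 0.27 and 0.14 ± 0.27. Over the 6 arrays 1554411_at followed 201533_at (r = 0.95), while 223679_at ran against both (r of -0.57 and -0.49), as a description of 6 arrays.

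BTRC encodes beta-TrCP, the F-box protein that marks beta-catenin for destruction, and IMP1 is known to protect its mRNA from decay by a microRNA. At 224471_s_at it read 156 and 227 with mock, 188 and 183 with hIMP1 wt, and 174 and 218 with hIMP1 Dmut, so the groups overlapped. The 3 tested probe sets differed from mock by -0.06 to 0.04 with hIMP1 wt, and in each the arrays numbered 1 gave a positive value (0.18 to 0.33) and those numbered 2 a negative one (-0.26 to -0.30).

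With hIMP1 Dmut, BTRC had 1 probe set with both arrays above mock and 1 with both below. At 216091_s_at the intensity was 105 and 104 with mock, 134 and 85.8 with hIMP1 wt, and 130 and 117 with hIMP1 Dmut, a change of 0.22 ± 0.28 with hIMP1 Dmut. At 204901_at it was 75.3 and 72.5, 86.2 and 57.4, and 54.9 and 66.0 in the same order, a change of -0.26 ± 0.31. Neither passed, and the 2 readings of the same gene had opposite signs.

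TCF4 is here the gene of the E-box transcription factor also called ITF2 or E2-2. It is not TCF7L2, which Wnt studies often call TCF-4, and it partners other basic helix-loop-helix proteins. All 8 of its probe sets were tested. At 203753_at TCF4 read 404 and 289 with mock, 700 and 497 with hIMP1 wt, and 215 and 581 with hIMP1 Dmut. Both hIMP1 wt arrays were above both mock arrays, whereas the hIMP1 Dmut arrays lay on either side of them. The change was 0.77 ± 0.39 with hIMP1 wt, a factor of 1.71 (95% interval of the log2 change -0.10 to 1.64, unadjusted p = 0.0764, adjusted p = 1, limma), and 0.05 ± 0.39 with hIMP1 Dmut.

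Within the numbers, the hIMP1 wt value of TCF4 203753_at was 0.78 and 0.76, and the hIMP1 Dmut value was -0.88 and 0.99. Without either hIMP1 Dmut array the hIMP1 Dmut change was therefore 0.75 or -0.64. The second TCF4 probe set with groups that did not overlap was 212385_at, at 128 and 82.2 with mock, 132 and 125 with hIMP1 wt, and 151 and 157 with hIMP1 Dmut. It gave 0.30 ± 0.27 with hIMP1 wt and 0.54 ± 0.27 with hIMP1 Dmut (95% interval -0.06 to 1.14). The lower of the mock arrays is the one numbered 2, and the hIMP1 Dmut change was 0.22 among arrays numbered 1 and 0.86 among those numbered 2.

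The 6 other TCF4 probe sets ranged from -0.17 to 0.11 with hIMP1 wt and from -0.20 to 0.18 with hIMP1 Dmut. The 28 pairs of TCF4 probe sets had correlations over the 6 arrays from -0.71 to 0.90 with a median of 0.12, and 15 of the 28 were positive. The closest pair was 212386_at and 213891_s_at (r = 0.90), followed by 222146_s_at and 212387_at (r = 0.78). For comparison within genes, the 6 pairs of MKI67 probe sets lay between 0.39 and 0.86, the 6 pairs of MAPT between -0.63 and 0.55, and the 3 pairs of BTRC between 0.01 and 0.31. Points in these correlations share the arrays and the scaling.

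**Figure D3:**
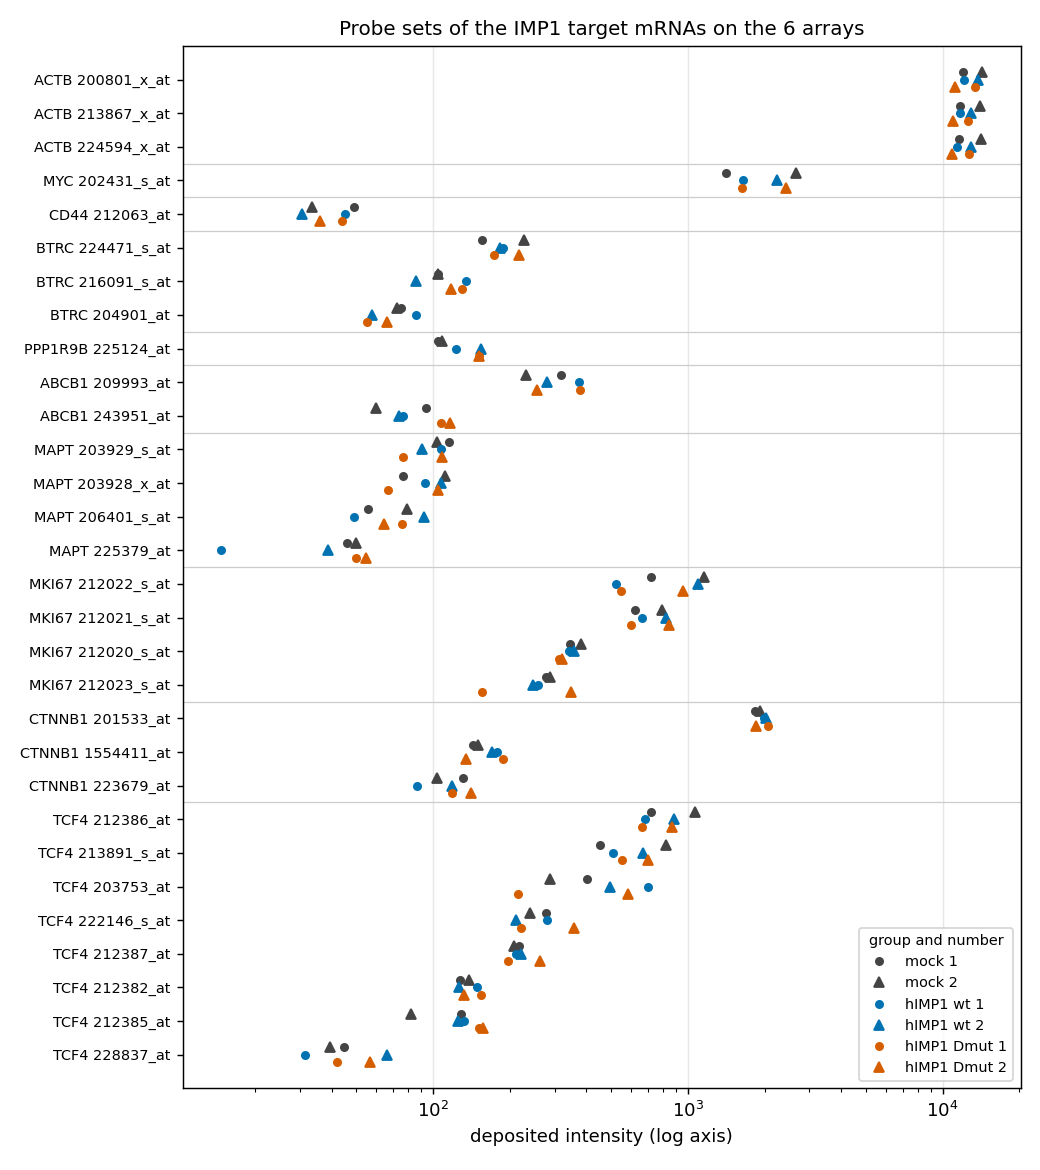
Deposited intensity of the 30 tested probe sets of the IMP1 target mRNAs on each of the 6 arrays (log axis), with colour for the group, circles for arrays numbered 1 and triangles for arrays numbered 2; levels of different probe sets are not comparable. In MYC 202431_s_at (1413 to 2646) and MKI67 212022_s_at (524 to 1156) the triangles lie right of the circles in every group, and in TCF4 203753_at the 2 hIMP1 Dmut arrays, 215 and 581, lie far apart.

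MAPT encodes tau, which binds and steadies microtubules and is best known in neurons. Of its 6 probe sets, 4 were tested. At 203929_s_at MAPT read 116 and 103 with mock, 108 and 90.3 with hIMP1 wt, and 76.2 and 108 with hIMP1 Dmut, a change of -0.14 ± 0.28 and -0.24 ± 0.28. At 203928_x_at the changes were 0.10 ± 0.31 and -0.13 ± 0.31, and at 206401_s_at they were 0.02 ± 0.35 and 0.07 ± 0.35.

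The fourth MAPT probe set was the only 1 of the 30 in which both hIMP1 wt arrays lay below both mock arrays and both hIMP1 Dmut arrays above them. The constructs lay on opposite sides of mock in this way, in either direction, for 3.33% of the 30 and for 1.2% of all probe sets. At 225379_at the intensity was 45.9 and 49.7 with mock, 14.7 and 38.9 with hIMP1 wt, and 50.03 and 54.4 with hIMP1 Dmut. The change was -0.75 ± 0.40 with hIMP1 wt (95% interval -1.65 to 0.15) and 0.11 ± 0.40 with hIMP1 Dmut. The difference between the constructs, whose sign this order already sets, was 0.86 ± 0.40 (95% interval -0.04 to 1.76, unadjusted p = 0.0591, adjusted p = 1, limma). The size rests on the hIMP1 wt array numbered 1, which lay at the 31.9th percentile of its array. The hIMP1 wt change was -1.21 among arrays numbered 1 and -0.29 among those numbered 2, and -0.24 without that array.

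ABCB1 encodes P-glycoprotein, the pump that exports many drugs from cells. At 209993_at it read 319 and 231 with mock, 373 and 280 with hIMP1 wt, and 378 and 256 with hIMP1 Dmut. The groups overlapped, and the change was 0.24 ± 0.26 with hIMP1 wt and 0.19 ± 0.26 with hIMP1 Dmut, positive within both numbers for each construct. At 243951_at the intensity was 94.0 and 59.6 with mock, 76.4 and 73.3 with hIMP1 wt, and 108 and 116 with hIMP1 Dmut. Both hIMP1 Dmut arrays were above all 4 others, by 0.53 ± 0.29 against mock (95% interval -0.13 to 1.18) and by 0.53 ± 0.29 against hIMP1 wt (-0.12 to 1.18). Another probe set, 209994_s_at, names ABCB1 together with ABCB4 and read 344 and 184 with mock, 372 and 245 with hIMP1 wt, and 305 and 240 with hIMP1 Dmut.

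The changes were also set side by side within the replicate numbers. With hIMP1 wt, 15 of 30 probe sets had the same sign among arrays numbered 1 and among arrays numbered 2 (50%, against 50.7% of all probe sets). With hIMP1 Dmut it was 11 of 30 (36.7%, against 45.6%), and between the constructs 9 of 30 (30%, against 44.2%).

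**Figure D4:**
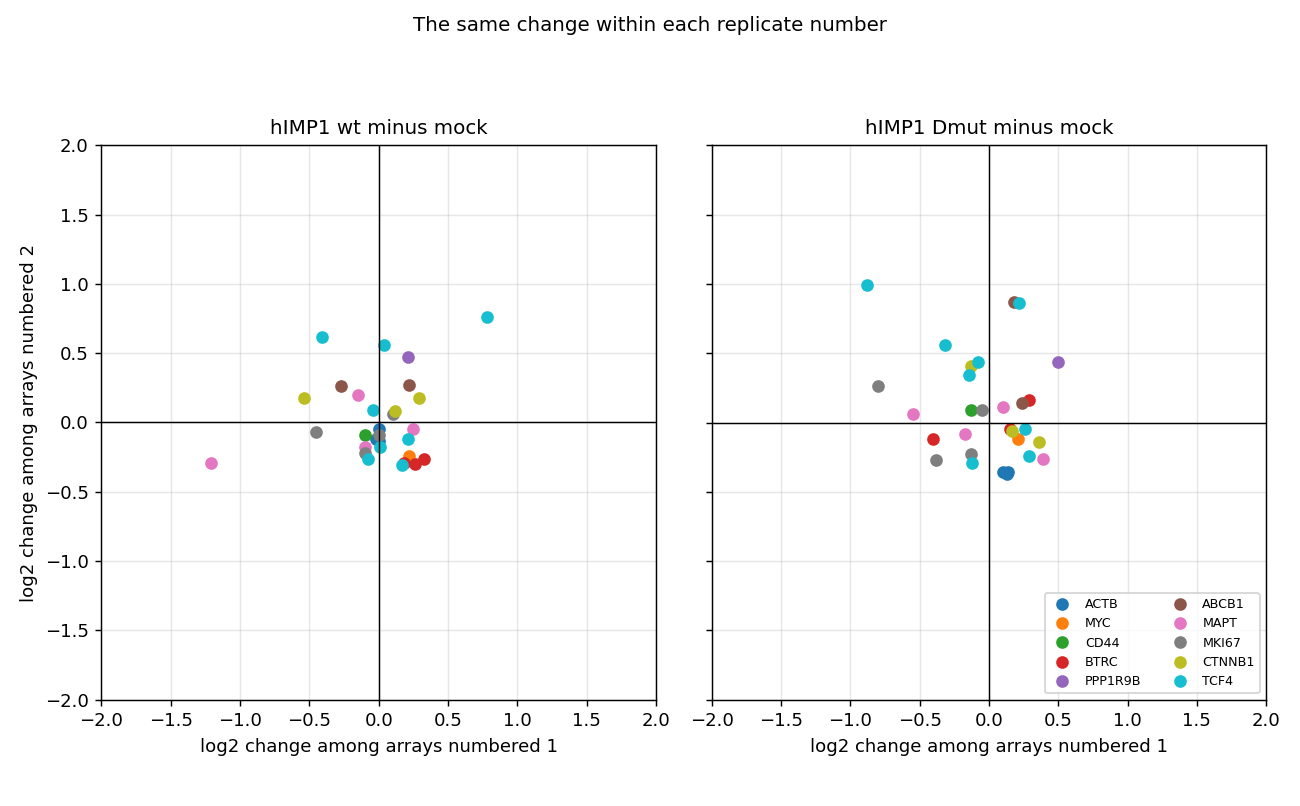
Log2 change against mock of the 30 tested probe sets among the arrays numbered 1 (horizontal axis) and among those numbered 2 (vertical axis), with hIMP1 wt on the left, hIMP1 Dmut on the right and colour for the gene. With hIMP1 wt, 15 of 30 points lie in the quadrants of equal sign, and with hIMP1 Dmut 11 of 30. PPP1R9B, at 0.50 and 0.44 with hIMP1 Dmut, must lie there because its groups do not overlap.

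The replicate number separated some of these mRNAs in a fit that takes out the group, whereas the group comparisons above leave the number in the error. With the number taken out too, the SE of the hIMP1 wt change was 0.15 instead of 0.30 for MYC. For MKI67 212022_s_at it was 0.15 instead of 0.37. Both are among the probe sets that differed most between the numbers. The SE of some others hardly changed, such as CD44 212063_at (0.35 instead of 0.37) and MAPT 225379_at (0.38 instead of 0.40). In that fit again 0 of 30 probe sets passed in any group comparison. In a limma fit with a coefficient per group and the replicate number, 4 of 30 probe sets differed between arrays numbered 2 and 1 at an adjusted p under 0.05 (13.3%, against 5.71% of all), and 6 at an unadjusted p under 0.05 (20%, against 22.3%). All 4 were higher in the arrays numbered 2: MKI67 212022_s_at, MYC 202431_s_at, and TCF4 213891_s_at and 212386_at. The 3 arrays numbered 2 lay above all 3 numbered 1 in 6 probe sets (20%, against 14.5% of all) and below them in 2 (6.67%, against 14.8%). The labels do not say what the number stands for. The summed intensity of 5 neuronal markers was 1289 to 1516 in the arrays numbered 1 and 1601 to 1734 in those numbered 2. Most of this sum is a single gene, NEFL, at 1080 to 1227 and 1332 to 1492. SNAP25 went the other way in every group, from 100 to 48.1 in mock, 75.5 to 44.5 with hIMP1 wt and 71.9 to 56.6 with hIMP1 Dmut. SYT1 was higher in the arrays numbered 2 in every group. RBFOX3 lay below the array median on all 6 arrays, and NEFM lay above it on 3. The ACTB 3′ to 5′ ratio was 1.44 to 1.52 in the arrays numbered 1 and 1.57 to 1.67 in those numbered 2, without overlap. Other such ratios overlapped between the numbers. The GAPDH 3′ to 5′ ratio was 1.03 to 1.16 and 1.13 to 1.17, and the ACTB 3′ to middle ratio 1.23 to 1.28 and 1.19 to 1.37. The part of the neuronal genes or of RNA integrity in the result was not tested. The median difference of the 30 probe sets was 0.10, beside -0.01 (-0.015) for all.

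MKI67 212022_s_at was 1.8 times higher in the arrays numbered 2, a log2 difference of 0.85 ± 0.12 (adjusted p = 0.0039), with 0.68 in mock, 1.05 with hIMP1 wt and 0.80 with hIMP1 Dmut. MYC was 1.55 times higher, at 0.64 ± 0.12 (adjusted p = 0.0144), with 0.90, 0.44 and 0.57 in the same groups. The other MKI67 probe sets differed by 0.38 ± 0.11 (212021_s_at, adjusted p = 0.0708), 0.36 ± 0.20 and 0.08 ± 0.13, none past the threshold.

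In TCF4, 213891_s_at differed by 0.52 ± 0.13 (adjusted p = 0.0403) and 212386_at by 0.44 ± 0.11 (adjusted p = 0.0414), each higher in all 3 groups. At 213891_s_at the intensity was 452 and 824 with mock, 508 and 665 with hIMP1 wt, and 554 and 699 with hIMP1 Dmut. The 6 other TCF4 probe sets ranged from -0.20 to 0.37 and did not pass. ABCB1 209993_at was lower in the arrays numbered 2 in every group, by a log2 difference of -0.47 ± 0.13 (adjusted p = 0.0567), and CD44 212063_at likewise by -0.38 ± 0.29. The calls depend on the fit, since with a variance prior that ignores intensity 0 of the 4 passed, with adjusted p of 0.165 for MKI67 and 0.175 for MYC, and so did 0 of all 27307 probe sets. Without either mock array only MKI67 212022_s_at passed, and without either hIMP1 wt array that probe set and MYC did. Without either hIMP1 Dmut array TCF4 203753_at differed by -0.48, the opposite sign of its 0.15 over all arrays. An array left alone in its group does not bear on this difference. Each of these fits therefore compares the numbers only in the groups that keep both arrays.

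**Figure D5:**
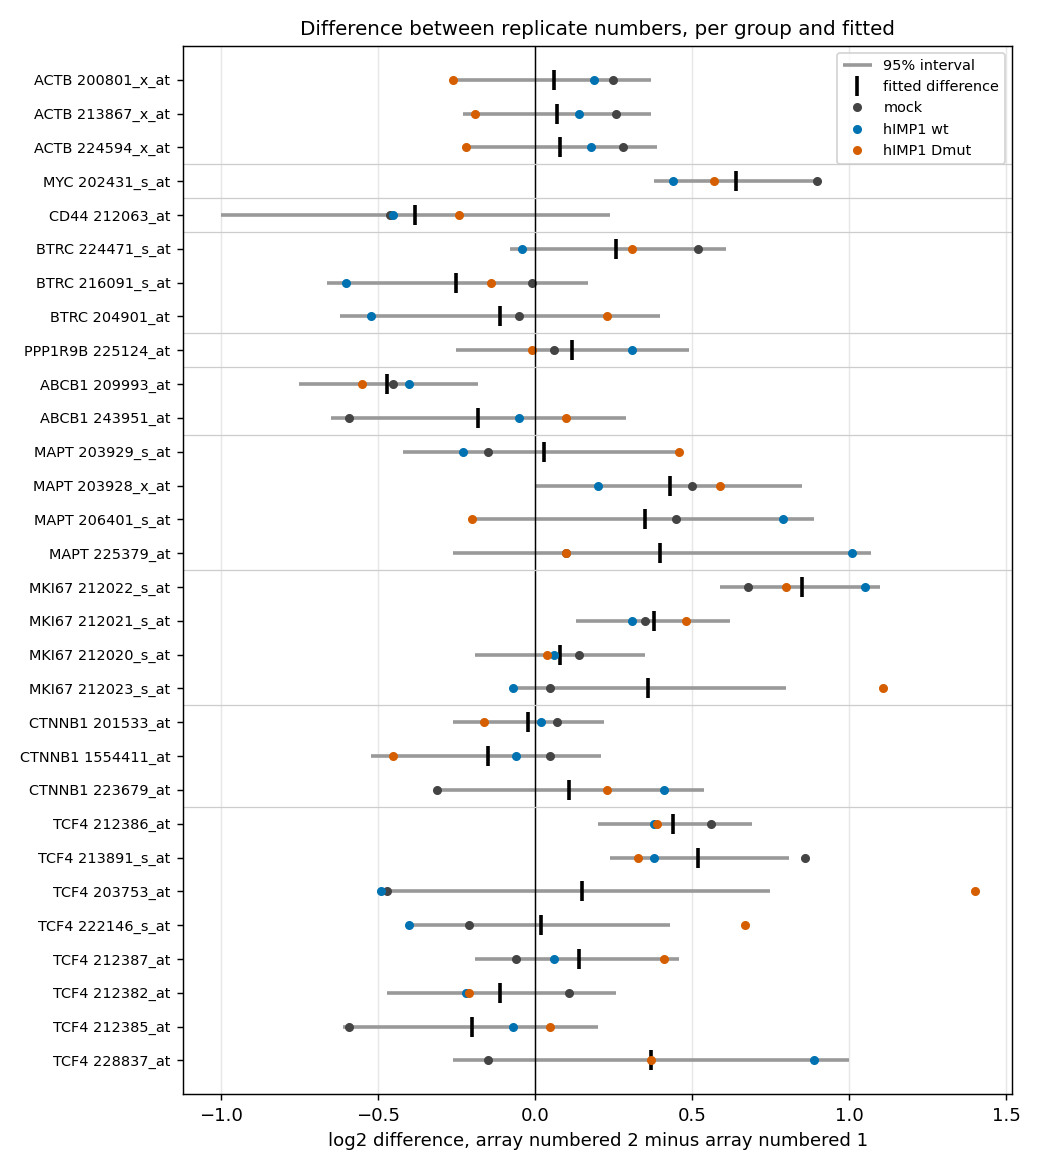
Log2 difference of the array numbered 2 minus the array numbered 1 for the 30 tested probe sets of the IMP1 target mRNAs, as points for each group, with the fitted difference (black tick) and its 95% interval (grey bar). The 3 groups lie on the same side of 0 for MYC (0.44 to 0.90), MKI67 212022_s_at (0.68 to 1.05) and ABCB1 209993_at (-0.55 to -0.40), and on both sides for the ACTB probe sets.

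Genes around these mRNAs were read at the brightest tested probe set of each gene. Among 27 measured genes of the Wnt pathway 0 passed in any comparison (limma). With hIMP1 wt 8 were higher and 19 lower, where 46.5% of all 12269 genes were higher. With hIMP1 Dmut the counts were 16 and 11, where 48.7% of all were higher. Their medians were -0.08 and 0.03, beside -0.015 and -0.006 for all genes. The largest change was in CTNNBIP1, which encodes an inhibitor that keeps beta-catenin from TCF factors. It read 109 and 158 with mock, 40.4 and 81.7 with hIMP1 wt, and 132 and 181 with hIMP1 Dmut. The hIMP1 wt value was -1.07 ± 0.35 (unadjusted p = 0.0113, adjusted p = 1), and the difference between the constructs was 1.29 ± 0.35 (unadjusted p = 0.00392, adjusted p = 1). With hIMP1 wt 3 of 13 measured beta-catenin target genes were higher (46.5% of all genes), and with hIMP1 Dmut 5 (48.7% of all). Of these 13 target genes 0 passed, with medians of -0.11 and -0.12. Among them DKK1, which encodes a secreted Wnt antagonist, gave -0.51 ± 0.39 and -0.55 ± 0.39.

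With hIMP1 wt 5 of 15 measured MYC target genes were higher (46.5% of all genes), and with hIMP1 Dmut 3 (48.7% of all). Of these 15 target genes 0 passed, with medians of -0.04 and -0.09. RRS1, a ribosome assembly factor, gave the largest change with hIMP1 Dmut relative to its error, -0.29 ± 0.19, and EIF4E, the cap-binding translation factor, with hIMP1 wt, 0.19 ± 0.17. The 13 genes of the MYC network, its partners and regulators, had medians of -0.03 and 0.02, and 0 passed. The largest of their changes was that of MXD3, a MAX partner that opposes MYC, at 0.89 ± 0.56 with hIMP1 wt, with 24.8 and 96.0 in mock beside 98.6 and 105 with hIMP1 wt. Without the mock array numbered 1 it was 0.08, and without the one numbered 2 it was 1.71. The 4 proteins known to join IMP1 on the MYC coding region determinant, encoded by HNRNPU, SYNCRIP, DHX9 and YBX1, ranged from -0.06 to 0.22 with hIMP1 wt and from -0.24 to 0.05 with hIMP1 Dmut, and 0 passed.

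Other actin isoforms, microtubule-associated proteins, CD44 partners, subunits around spinophilin, drug efflux pumps and other IMP1 clients were read in the same way. Of 3, 11, 8, 4, 5 and 2 measured genes in these lists 0 passed in any comparison. An unadjusted p under 0.05 (limma) was held by 1.03% of all 27307 probe sets with hIMP1 wt and 1.42% with hIMP1 Dmut. Between the constructs the share was 1.23%. In these lists MAP2, which encodes a microtubule-binding protein of dendrites, was the only such gene against mock. It read 52.0 and 64.8 with mock, 34.2 and 19.8 with hIMP1 wt, and 24.5 and 44.5 with hIMP1 Dmut, a change of -0.93 ± 0.40 (unadjusted p = 0.0421, adjusted p = 1) and -0.67 ± 0.40. Between the constructs it was ACTC1, which encodes the alpha-actin of heart muscle. ACTC1 read 40.5 and 54.7 with mock, 28.9 and 22.9 with hIMP1 wt, and 83.8 and 78.3 with hIMP1 Dmut, a difference of 1.37 ± 0.33 (unadjusted p = 0.00199, adjusted p = 1).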

How the data were processed

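Total RNA of 6 samples was measured on 1-colour arrays. The authors deposited 1 linear intensity for each probe set and array. Which software and scaling produced them is not given in the sources used here. Group and replicate number of each array were read from GEO's labels. Gene symbols came from the platform annotation table (41097 probe sets with 1 symbol, 1801 with several, 11777 with none), checked by gene identifier against the RefSeq gene table of GRCh38.p14, in which 54 of those with 1 symbol had no match and 0 symbols changed. Coordinates are left out because no file gives a build. The 10 members and the gene lists were chosen with earlier results of these data known.

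Values were used as log2 of the intensity plus 9.04, the pooled lower quartile, which makes changes of dim probe sets smaller. The 62 control probe sets were left out, and probe sets with a mean log2 value no lower than the median of these means (5.19) were kept, 27307 in all. All 6 arrays entered a single limma 3.58.1 fit (R 4.3.3, lmFit and eBayes with an intensity trend) with a coefficient per group, 3 residual degrees of freedom and 7.03 from the prior. Tests were two-sided, adjusted by Benjamini-Hochberg over all kept probe sets, with a threshold of 0.05. Errors are standard errors and intervals are at 95%. A second fit added the replicate number. The fit was tested on simulated data.

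Named genes were every member probe set, IGF2BP1, the cell type markers, and genes drawn from the 3 of each list with the largest moderated statistic in either comparison with mock. Alternatives were other scalings, offsets, filters and variance priors, control probe sets kept, each array left out, fits on just the 4 arrays of a comparison, the replicate number as a block, and for the gene lists an average over a gene's probe sets.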

Additional observations from a re-analysis of the deposited data

Results flagged for a closer look

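In 4 genes both hIMP1 wt arrays lay on one side of both mock arrays and both hIMP1 Dmut arrays on the other. They are 1 of the 30 member probe sets (3.33%) and 3 of the 103 other genes of the pathway lists (2.91%), and the same order held for 329 of all 27307 probe sets (1.2%) and for 132 of 12269 genes (1.08%). MAPT at 225379_at differed between the constructs (hIMP1 Dmut minus hIMP1 wt) by 0.86 ± 0.40 (SE), with an unadjusted p of 0.0591. Its value was 1.31 among arrays numbered 1 and 0.40 among those numbered 2, and 0.35 to 1.36 with an array left out. ACTC1 at 205132_at differed by 1.37 ± 0.33, with an unadjusted p of 0.00199, and by 1.29 and 1.45 within the numbers. FBXW7 at 229419_at, which encodes the F-box protein that marks MYC for destruction, differed by 0.40 ± 0.22, with an unadjusted p of 0.0991, and by 0.33 and 0.47 within the numbers. It read 163 and 156 with mock, 154 and 143 with hIMP1 wt, and 195 and 201 with hIMP1 Dmut. APC at 203525_s_at, which encodes a scaffold of the complex that destroys beta-catenin, differed by 0.40 ± 0.19, with an unadjusted p of 0.0655, and by 0.22 and 0.57 within the numbers. It read 382 and 380 with mock, 350 and 306 with hIMP1 wt, and 411 and 460 with hIMP1 Dmut, and it was named after its values were seen. All 4 were picked by this order of the groups, which itself sets which construct is higher, over all arrays and within each number. The unadjusted p-values and the values within the numbers therefore rest on the values that picked the genes and are no independent support. In the comparison of the constructs all 4 had an adjusted p of 1 over 27307 probe sets (limma).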

How the results depend on the processing

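In each of the 3 group comparisons 0 member probe sets were called under every alternative run, each array left out included, and the lowest adjusted p was 0.999. The sign of a change was less settled. It stayed the same under all alternatives for 8, 8 and 6 of the 30 probe sets (hIMP1 wt, hIMP1 Dmut, between constructs), and for 5, 7 and 12 it turned under an alternative other than a left-out array. For arrays numbered 2 against 1, the 4 calls became 2 with no filter (MKI67 212022_s_at and MYC) and 0 without an intensity trend, and ranged from 1 to 9 with an array left out. There TCF4 203753_at turned from 0.15 to -0.48 without either hIMP1 Dmut array (up to 0.46 without another array). The groups share the replicate numbers, and the labels do not say whether these pair the arrays. Over the tested probe sets, arrays of the same number correlated by 0.97 to 0.9797. Arrays of the same group correlated by 0.9631 to 0.9644, and other pairs by 0.96 to 0.9683. The deviations of same-numbered arrays from their group means correlated by 0.464 (mock and hIMP1 wt), 0.20 and 0.217 (hIMP1 Dmut with each). With the replicate block 0 member probe sets were called in each comparison. An unadjusted p under 0.05 (limma) was held by 1, 3 and 1 of the 30, against 2.58%, 4.15% and 3.19% of all probe sets. These were TCF4 203753_at with hIMP1 wt, and PPP1R9B 225124_at, MKI67 212022_s_at and TCF4 212385_at with hIMP1 Dmut. Between the constructs it was MAPT 225379_at. A fit without 1 array assumes that the lone array of its group varies like the others. In the difference between numbers that lone array does not count, so the difference then comes from the other groups only.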
